A study of Mus musculus with 12 samples.

Results

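The 34 genes described here encode nucleolar and ribosome biogenesis factors: proteins of small nucleolar ribonucleoproteins (snoRNPs), of the small-subunit processome, of ribosome assembly and of RNA polymerase I. They were taken by name from the gene list given for this set. That list was drawn up with earlier results of these data known. Each of the 34 names matched 1 of the 55586 genes in the count table, and all 34 passed the filter on low counts that left 13474 genes for testing. Total RNA for 12 sequencing libraries came from cultured mouse peritoneal macrophages, phagocytic cells that live in the cavity of the abdomen. The 4 treatments had 3 libraries each: Remodelin hydrobromide followed by interferon gamma (IFN-γ), Remodelin hydrobromide alone, IFN-γ alone, and neither agent (control). The labels name no genetic change, and all cells were grown in the same serum-containing medium. The labels give no dose, treatment time, animal age, sex or strain, and nothing tells whether libraries of 1 treatment had separate cultures or animals behind them. The p-values therefore measure the spread between libraries, and that spread may be technical.

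Ribosomes are built in the nucleolus, where RNA polymerase I transcribes a long ribosomal RNA precursor. Guided by snoRNPs, that precursor is methylated and pseudouridylated, then folded, cut and packed with ribosomal proteins by successive assembly factors into the small and the large subunit. Many of these genes are classic targets of the transcription factor Myc and are high in growing cells. Remodelin is known as an inhibitor of the nucleolar acetyltransferase NAT10, which acetylates cytidines in RNA, and IFN-γ is the main activating cytokine of macrophages.

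The 34 genes did not move in 1 direction. When the effect of Remodelin was averaged over cells with and without IFN-γ, 2 of 34 genes passed an adjusted p of 0.05, beside 7.04% of all tested genes. Bop1, a large-subunit assembly factor, fell by 0.61 on the log2 scale, as 1 of 34 members that was lower beside 4.8% of genes. Wdr43, a processome protein, rose by 0.58 on that scale, as 1 of 34 that was higher beside 2.24% of genes. No member passed the test in any comparison of IFN-γ, or in either Remodelin comparison taken alone. The sign of a member's difference followed the base composition of its transcript, as described below. For that reason, stretches of coding exons are shown for 4 members chosen after their values were seen, the GC-rich Bop1 and Rrp9 and the AT-rich Wdr43 and Wdr12. Each stretch is the central part, of up to 90 bases, of the coding exon that holds the midpoint of the coding sequence. They were read 5′ to 3′ on the gene's strand from the GRCm38 genome with GENCODE M21 exons, with every G and C in capitals.
Bop1: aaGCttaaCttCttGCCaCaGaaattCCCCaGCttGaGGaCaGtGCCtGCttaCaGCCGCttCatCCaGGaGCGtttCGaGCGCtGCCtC
Rrp9: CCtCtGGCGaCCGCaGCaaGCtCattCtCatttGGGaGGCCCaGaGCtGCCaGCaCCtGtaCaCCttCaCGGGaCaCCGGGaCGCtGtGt
Wdr43: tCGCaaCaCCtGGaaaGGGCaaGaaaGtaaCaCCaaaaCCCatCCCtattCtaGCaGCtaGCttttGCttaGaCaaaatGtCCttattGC
Wdr12: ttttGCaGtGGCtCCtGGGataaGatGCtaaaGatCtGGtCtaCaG

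The Bop1 stretch lies on the minus strand at chr15:76455006-76455095, in exon 8 of 16, and 49 of its 90 bases are G or C. The Rrp9 stretch lies on the plus strand at chr9:106483120-106483209, in exon 8 of 15, and 56 of its 90 bases are G or C. The Wdr43 stretch, at chr17:71638350-71638439 on the plus strand in exon 8 of 18, holds 39 G or C of 90. The Wdr12 stretch is the whole 46-base exon 7 of 13 at chr1:60085711-60085756 on the minus strand, and 21 of its bases are G or C. Over the whole coding sequence, G and C made up 58.6% of Bop1, 60.6% of Rrp9, 46.3% of Wdr43 and 46.7% of Wdr12. Over the longest annotated transcript, the 34 members ran from 40.4% for Wdr12 to 59.9% for Rrp9.

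The libraries held 15917454 to 19418665 counts over all genes and detected 17353 to 18175 genes. The members took 0.099% to 0.135% of the counts of a library, with the lowest share in Remodelin library 1 and the highest in control library 1. One library stood apart. In Remodelin with IFN-γ library 1, the deviation of each gene from its mean over the 12 libraries fell with the gene's GC content (Spearman's rho of -0.69 across genes), and in the opposite direction control libraries 2 and 3 had rho of 0.53 and 0.55. That library held the highest value of 12 members, with a median GC content of 43.6%, and the lowest value of 10 members, with a median GC content of 54.0%. Called differences, and those of some members that stood out in that library, are also given without it. Members given without such a value may depend on it too. On average over IFN-γ, the Remodelin difference of Tsr1 was 0.11 with that library and 0.02 without it (log2). That of Mybbp1a went from -0.15 to -0.04, Rrp12 from -0.18 to -0.07, Rrp9 from -0.31 to -0.27 and Utp20 from 0.24 to 0.36. Summed macrophage markers ranged from 17158 to 24663 CPM (counts scaled to TMM-adjusted library sizes) in Remodelin with IFN-γ, 15017 to 25305 in Remodelin, 19989 to 22696 in IFN-γ and 15841 to 23652 in control libraries, so the markers of the labelled cell type were high in all. Markers of other cells were far lower, and some of them differed with Remodelin. Summed over 10 genes each, neutrophil markers stood at 53.3 to 55.4 CPM in Remodelin with IFN-γ and 56.1 to 57.3 in Remodelin, against 70.5 to 75.6 in IFN-γ and 69.4 to 83.4 in control libraries. B cell markers stood at 12.8 to 14.0 CPM in Remodelin with IFN-γ and 12.1 to 13.1 in Remodelin, against 19.2 to 23.0 in IFN-γ and 17.9 to 21.7 in control libraries. The 12 mesothelial and stromal markers summed to 264 to 296 CPM in Remodelin with IFN-γ, 193 to 305 in Remodelin, 296 to 334 in IFN-γ and 325 to 456 in control libraries. These sums mix genes that differ. Of the tested mesothelial and stromal markers 5 of 12 fell with Remodelin on average, among them Upk3b at -1.80 and Mgp at -1.57 (log2), while Msln at 0.64, Krt18 at 0.61 and Krt8 at 0.43 did not pass. Of 5 tested neutrophil markers 2 fell, Mmp8 at -1.30 and Mmp9 at -1.24 (log2), while S100a8 at -0.21, Csf3r at -0.04 and Cxcr2 at 0.30 did not pass. Of 6 tested B cell markers 1 fell, Ighm at -0.92 (log2). T and NK cell markers stayed under 1.42 CPM in every library, with 1 of 9 at 0 throughout. The part of these other cells in the differences below was not tested, and in bulk RNA fewer cells of a type and less RNA per cell cannot be told apart.

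Levels per length spanned a wide range within the set. On the FPKM scale (fragments scaled for gene length and library size) of the deposited table, the mean level over 12 libraries was highest for Npm1, the nucleolar chaperone nucleophosmin, at 35.1 ± 13.5 FPKM (SD, n = 12). Next came the large-subunit factors Pes1 at 29.4 ± 4.24 FPKM and Nop16 at 26.8 ± 5.24 FPKM, then Fbl, the methyltransferase fibrillarin, at 21.9 ± 2.82 FPKM. Neighbours among these 4 overlapped within their spread. The lowest were Rrp1b at 1.34 ± 0.15 FPKM, the pseudouridine synthase Dkc1 at 1.24 ± 0.47 FPKM and the snoRNP protein Nop58 at 0.98 ± 0.29 FPKM. Thus the catalytic subunits of the methylating and pseudouridylating snoRNPs, Fbl and Dkc1, stood far apart, and so did Nop56 at 9.17 ± 0.69 FPKM and its snoRNP partner Nop58. These levels depend on the gene length in the table, which exceeds that of the longest annotated transcript for most members and is 10188 bases for Ncl and 11955 for Wdr12.

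**Figure D1:**
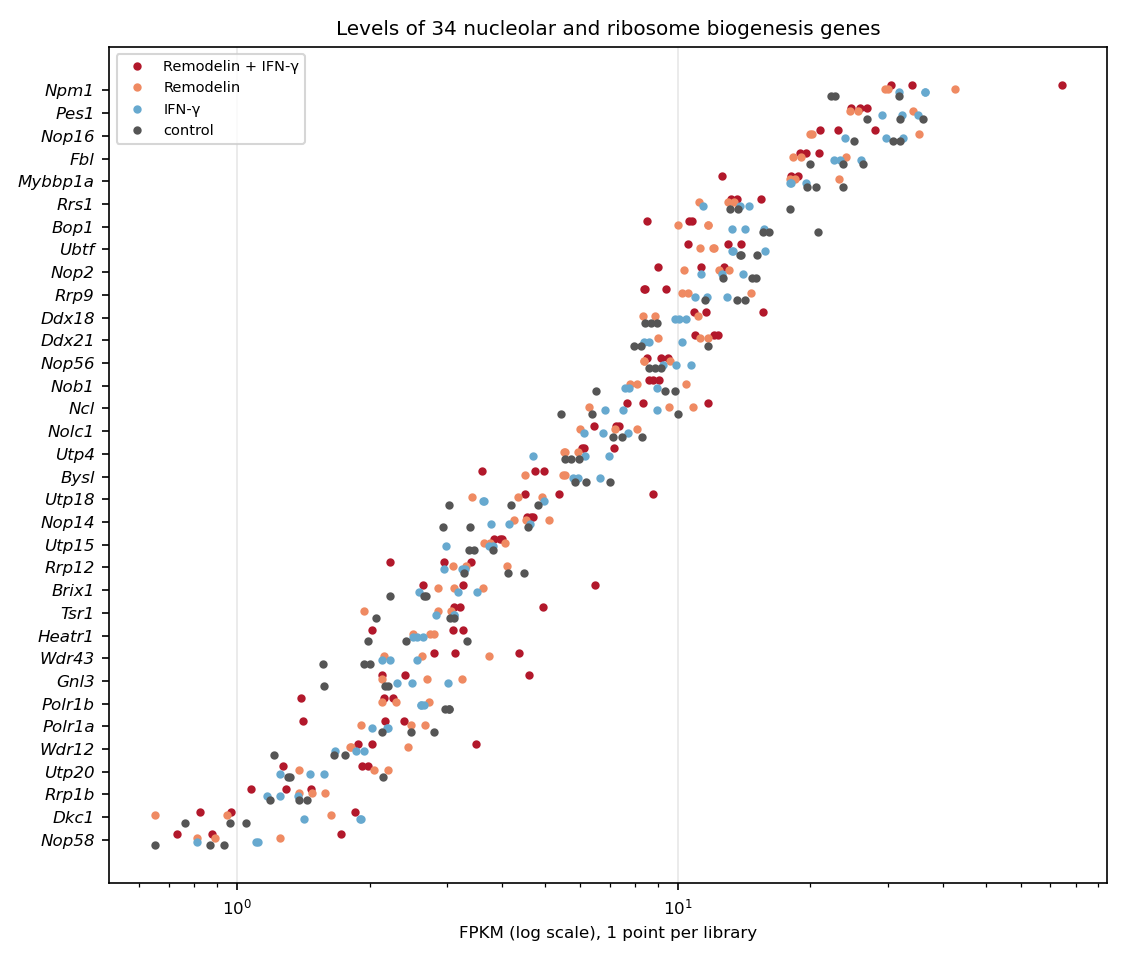
Level of each of the 34 genes in every library, in FPKM on a log axis, with 1 point per library and a row per gene ordered by the mean; colours mark the 4 groups. Npm1 lies at the top and Nop58 at the bottom, and the points of the groups overlap in most rows; the isolated points to the right for Npm1, Utp18, Brix1 and Wdr12 are Remodelin with IFN-γ library 1.

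Across libraries the members varied in 2 opposite directions. Over the 561 pairs of members, the median Pearson r of log2 CPM across the 12 libraries was 0.01, with single pairs from -0.93 to 0.97, and 276 pairs were below 0. These correlations share the same 12 libraries and their composition and are a description. The first principal component of the members held 56.8% of their variance, and its ends were Remodelin with IFN-γ library 1 on one side and control libraries 2 and 3 on the other. On that component 19 of 34 members had an r of 0.7 or more in size, 8 of one sign and 11 of the other. The 8 included Bysl (0.87), Nop2 (0.82) and Bop1 (0.79), and the 11 included Brix1 (-0.94), Gnl3 (-0.93) and Wdr43 (-0.93). The members' mean log2 CPM averages over both directions. Outside the set, the genes most like that mean over the 12 libraries were Enpp1 (Pearson's r of 0.96), Ncapg2 (0.94) and Far1 (0.93).

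Among the RNA polymerase I genes, Polr1b, the second-largest subunit, had 8.18, 13.3 and 12.6 CPM in Remodelin with IFN-γ libraries and 11.8, 15.9 and 13.4 CPM in Remodelin libraries, against 15.6, 15.3 and 15.5 CPM in IFN-γ libraries and 17.9, 17.7 and 17.3 CPM in control libraries. All Remodelin libraries lay below the control libraries, and all combined-treatment libraries lay below the IFN-γ libraries. The average difference was -0.40 ± 0.13 (log2, SE) with an adjusted p of 0.0775 in edgeR's quasi-likelihood test, so Polr1b did not pass. Ubtf, which binds and opens the ribosomal DNA promoter, had 69.8, 92.6 and 85.6 CPM in Remodelin with IFN-γ libraries and 75.5, 78.96 and 74.2 CPM in Remodelin libraries, against 104.03, 87.7 and 89.1 CPM in IFN-γ libraries and 92.7, 100.1 and 90.8 CPM in control libraries. Remodelin libraries lay below control libraries, and the groups overlapped in the presence of IFN-γ. Its average difference of -0.24 ± 0.10 (log2) had an adjusted p of 0.136 in edgeR. Polr1a, the largest subunit, showed -0.10 ± 0.14 (log2, adjusted p of 0.677 in edgeR), with 16.9, 28.9 and 25.9 CPM in Remodelin with IFN-γ, 21.7, 31.9 and 29.6 CPM in Remodelin, 26.4, 24.1 and 26.4 CPM in IFN-γ and 33.8, 29.6 and 25.4 CPM in control libraries. Its groups overlapped. All 3 polymerase I genes had differences below 0, and none passed the test. Their transcript GC content ran from 51.1% (Polr1a) to 54.1% (Ubtf), and its part in the shared sign was not tested. Without Remodelin with IFN-γ library 1, Polr1b was at -0.28 and Polr1a at 0.03 (log2).

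Of the 5 snoRNP genes, 4 had differences below 0 and none passed. Fbl had 80.3, 83.2 and 88.5 CPM in Remodelin with IFN-γ libraries and 96.5, 80.6 and 77.5 CPM in Remodelin libraries, against 110.8, 98.6 and 97.04 CPM in IFN-γ libraries and 85.6, 111.7 and 99.7 CPM in control libraries. The Remodelin-treated libraries lay below the others in the presence of IFN-γ and overlapped in its absence. Fbl had an average difference of -0.25 ± 0.10 (log2, adjusted p of 0.133 in edgeR). Nop56, a core protein of the same methylating particle, had 39.3, 35.4 and 37.7 CPM in Remodelin with IFN-γ libraries and 32.9, 39.6 and 34.5 CPM in Remodelin libraries, against 44.2, 40.8 and 38.7 CPM in IFN-γ libraries and 35.9, 37.9 and 36.4 CPM in control libraries. It varied least of all members across the 12 libraries by the SD of log2 CPM. Its highest library exceeded its lowest by a factor of 1.35, and its average Remodelin difference was -0.09 ± 0.10 (log2). Nolc1, a chaperone of snoRNPs, showed -0.05 ± 0.12 and Nop58 showed 0.18 ± 0.20 (log2). Without Remodelin with IFN-γ library 1 both had the opposite sign, at 0.01 for Nolc1 and -0.02 for Nop58. Dkc1 had a difference of -0.17 ± 0.24 (log2), or -0.35 without that library. It had few reads, with 40 counts in Remodelin library 1 and 58 in control library 3.

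The abundant nucleolar phosphoproteins nucleolin (Ncl) and Npm1 had differences above 0 that did not pass. Npm1 had 199.6, 91.8 and 81.8 CPM in Remodelin with IFN-γ libraries and 74.9, 80.1 and 113.9 CPM in Remodelin libraries, against 85.5, 97.6 and 98.8 CPM in IFN-γ libraries and 61.6, 85.2 and 59.2 CPM in control libraries. The first combined-treatment library lay far above the other 11, and the groups overlapped. The average difference was 0.39 ± 0.19 (log2) with an adjusted p of 0.195 in edgeR, and it was 0.17 without the first combined-treatment library (adjusted p of 0.438 in edgeR). Ncl had 120.1, 79.1 and 85.6 CPM in Remodelin with IFN-γ libraries and 61.2, 97.7 and 111.03 CPM in Remodelin libraries, against 70.2, 77.1 and 93.1 CPM in IFN-γ libraries and 103.6, 65.7 and 55.3 CPM in control libraries. Its groups overlapped, Remodelin library 1 being low and control library 1 high, and the difference was 0.25 ± 0.17 (log2, adjusted p of 0.348 in edgeR).

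In the small-subunit processome, 7 of 8 genes had differences above 0 and 1 passed. Those 7 ran from 41.7% (Utp18) to 48.3% (Nop14) in transcript GC content, and the part of GC content in this count was not tested. Wdr43, a subunit that links the processome to transcription of ribosomal DNA, had 21.0, 13.5 and 14.97 CPM in Remodelin with IFN-γ libraries and 9.80, 12.6 and 17.9 CPM in Remodelin libraries, against 10.3, 10.7 and 12.5 CPM in IFN-γ libraries and 9.72, 9.34 and 7.49 CPM in control libraries. Within each IFN-γ state the Remodelin-treated libraries all lay above the others, by a narrow margin in the absence of IFN-γ. Wdr43 rose by 0.58 ± 0.16 on the log2 scale with an adjusted p of 0.0390 in edgeR. The call was lost in 9 of the 12 fits that left out 1 library (adjusted p of 0.0523 to 0.120), and was kept without Remodelin with IFN-γ library 2, Remodelin library 1 or control library 1. Without Remodelin with IFN-γ library 1 its difference was 0.51 with an adjusted p of 0.0653 in edgeR. Rrp9, a protein of the U3 snoRNP and the member richest in GC, was the exception among the 8, at -0.31 ± 0.11 (log2, adjusted p of 0.0939 in edgeR). It had 24.9, 25.00 and 27.7 CPM in Remodelin with IFN-γ libraries and 40.9, 31.1 and 30.2 CPM in Remodelin libraries, against 34.5, 38.1 and 32.7 CPM in IFN-γ libraries and 34.4, 41.97 and 39.9 CPM in control libraries. The combined-treatment libraries lay below the other 9, and Remodelin library 1 lay among the untreated ones. Utp18 had 31.9, 16.4 and 19.5 CPM in Remodelin with IFN-γ and 11.7, 15.6 and 17.8 CPM in Remodelin, against 13.1, 13.2 and 18.3 CPM in IFN-γ and 17.6, 10.97 and 15.04 CPM in control libraries, and its groups overlapped. Its difference was 0.33 ± 0.18 (log2), and 0.19 without the first combined-treatment library. The remaining processome members, Utp4, Utp15, Utp20, Heatr1 and Nop14, ranged from 0.03 for Utp4 to 0.24 for Utp20 (log2), and none passed.

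Later small-subunit maturation was represented by 4 genes. Bysl, which encodes bystin, had 14.0, 19.5 and 18.4 CPM in Remodelin with IFN-γ libraries and 20.4, 21.3 and 17.5 CPM in Remodelin libraries, against 25.9, 23.1 and 22.7 CPM in IFN-γ libraries and 23.0, 27.3 and 23.9 CPM in control libraries. The 6 Remodelin-treated libraries all lay below the 6 others. The difference of -0.40 ± 0.12 (log2) had an adjusted p of 0.0507 in edgeR, just outside the threshold. Without the first combined-treatment library it was -0.30 (log2, adjusted p of 0.109 in edgeR). Rrp12, a karyopherin-like export factor, showed -0.18 ± 0.14, the endonuclease gene Nob1 showed 0.06 ± 0.12 and the GTPase-like Tsr1 showed 0.11 ± 0.17 (log2), and none passed.

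The clearest difference in the set was that of 1 large-subunit assembly gene, Bop1. Of the 9 large-subunit members 5 had differences below 0 and 4 above, with a median of -0.10 (log2). Bop1 had 25.4, 32.3 and 31.5 CPM in Remodelin with IFN-γ libraries and 33.1, 34.8 and 29.8 CPM in Remodelin libraries, against 46.9, 42.3 and 40.1 CPM in IFN-γ libraries and 47.0, 62.01 and 47.8 CPM in control libraries. All 6 libraries with Remodelin were below all 6 without it. Bop1 fell by 0.61 ± 0.11 on the log2 scale with an adjusted p of 0.00468 in edgeR, rank 133 by p among the tested genes. Taken alone, the difference was -0.68 ± 0.16 in the absence of IFN-γ (adjusted p of 0.0524 in edgeR) and -0.53 ± 0.16 in its presence (adjusted p of 0.147 in edgeR). Neither passed, and the 2 did not differ detectably from each other, with an interaction of 0.15 ± 0.23 (log2, adjusted p of 1.00 in edgeR). The average difference was called in 21 of 21 alternatives, at -0.64 to -0.36 (log2). It was smallest, at -0.36 with an adjusted p of 0.00537 in edgeR, once the GC and length trends of the libraries were removed, where 4 members were called beside 11.7% of genes. Without Remodelin with IFN-γ library 1 it was -0.53 with an adjusted p of 0.0106 in edgeR.

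Bop1 works in the PeBoW complex with Pes1 and Wdr12, which is required for maturation of the large-subunit ribosomal RNA. Its partners did not share the call. Pes1 had 75.3, 82.3 and 78.7 CPM in Remodelin with IFN-γ and 98.8, 77.9 and 74.8 CPM in Remodelin, against 107.2, 98.0 and 89.7 CPM in IFN-γ and 82.7, 109.7 and 96.5 CPM in control libraries. Its average difference was -0.26 ± 0.11 (log2, adjusted p of 0.141 in edgeR), and Remodelin library 1 was among its higher libraries. Wdr12 had 42.0, 22.8 and 24.3 CPM in Remodelin with IFN-γ and 27.9, 21.8 and 21.7 CPM in Remodelin, against 22.5, 23.4 and 20.4 CPM in IFN-γ and 14.7, 19.98 and 21.1 CPM in control libraries. Its difference had the opposite sign, 0.39 ± 0.15 (log2, adjusted p of 0.127 in edgeR), and the first combined-treatment library stood well above the rest. Without that library the difference was 0.26 (log2, adjusted p of 0.225 in edgeR). Whether the 3 subunits differed from one another was not tested. Among the other large-subunit factors, the differences of Nop16 (-0.26 ± 0.14), the RNA methyltransferase gene Nop2 (-0.24 ± 0.12) and Rrs1 (-0.10 ± 0.12) were below 0. Those of Rrp1b (0.06 ± 0.13), the nucleostemin gene Gnl3 (0.32 ± 0.18) and Brix1 (0.36 ± 0.19) were above 0 on the log2 scale. None of these 6 passed, and without the first combined-treatment library Gnl3 was at 0.13 and Brix1 at 0.15 (log2).

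**Figure D2:**
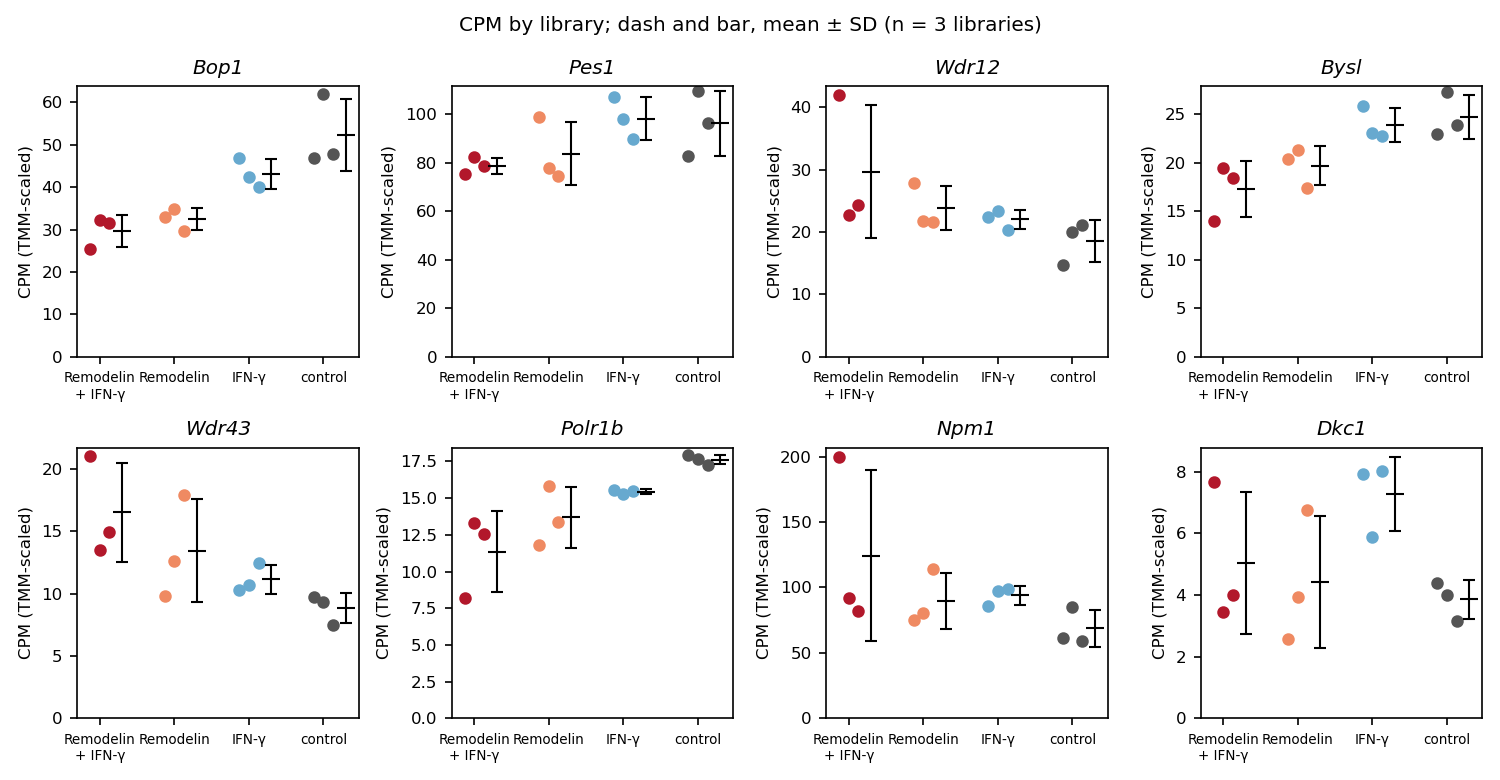
CPM in every library for 8 members, with 1 point per library and the mean ± SD of 3 libraries to the right of each group. All 6 Remodelin-treated libraries lie below the 6 others for Bop1 and Bysl, while Wdr12 and Npm1 are set apart mainly by 1 combined-treatment library, at 42.0 and 199.6 CPM.

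The remaining members are RNA helicases and a regulator. Ddx21, a helicase that acts on polymerase I transcription and ribosomal RNA processing, had 64.3, 57.4 and 62.8 CPM in Remodelin with IFN-γ, 44.5, 58.5 and 61.1 CPM in Remodelin, 43.8, 44.9 and 54.0 CPM in IFN-γ and 61.7, 43.1 and 41.2 CPM in control libraries. In the presence of IFN-γ the Remodelin libraries all lay above the others, and in its absence the groups overlapped. The average difference was 0.27 ± 0.13 (log2, adjusted p of 0.184 in edgeR). The helicase gene Ddx18 had 39.03, 27.5 and 29.01 CPM in Remodelin with IFN-γ libraries and 21.01, 20.8 and 27.7 CPM in Remodelin libraries, against 25.2, 24.6 and 26.4 CPM in IFN-γ libraries and 22.6, 21.1 and 21.6 CPM in control libraries. It showed 0.21 ± 0.12 (log2, adjusted p of 0.276 in edgeR) and was highest in the first combined-treatment library, without which it showed 0.15. Mybbp1a, a nucleolar repressor of Myb, had 73.9, 110.2 and 105.5 CPM in Remodelin with IFN-γ libraries and 102.4, 135.3 and 105.1 CPM in Remodelin libraries, against 114.2, 105.8 and 106.4 CPM in IFN-γ libraries and 121.7, 138.4 and 114.1 CPM in control libraries. Its groups overlapped, and the difference was -0.15 ± 0.12 (log2, adjusted p of 0.420 in edgeR).

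Over the whole set, 16 of 34 average Remodelin differences were below 0 and 18 above, with a median of 0.05 (log2) beside 0.03 over all tested genes. At an unadjusted p under 0.05 there were 10 members, or 29.4%, beside 26.1% of all tested genes. The 6 treated and 6 other libraries did not overlap for 2 members below (Bop1 and Bysl), or 5.88% beside 3.42% of all genes, and for 0 members above, beside 1.24%. In the absence of IFN-γ the Remodelin libraries did not overlap the control libraries for 3 members above, beside 6.09% of genes, and 4 below, beside 10.3%. In its presence the counts were 3 above, beside 12.2%, and 6 below, beside 15.6%. In the absence of IFN-γ, 0 of 34 members were called in edgeR beside 0.846% of genes. At an unadjusted p under 0.05 in edgeR there were 3 members (8.82%) beside 12.7% of genes. DESeq2 called 1 member there, Bop1 (adjusted p of 0.00841), among 242 genes over all. DESeq2 was fitted to every gene with a count, so its totals are not shares of the 13474 genes. In the presence of IFN-γ, 0 of 34 were called in edgeR beside 0.364% of genes, with 6 (17.6%) at an unadjusted p under 0.05 beside 16.2% of genes. DESeq2 called 0 members there and 286 genes over all. These 2 comparisons share no library. The sign was the same in both for 28 of 34 members, or 82.4%, beside 74.1% of all genes, and for 25 members, or 73.5%, beside 68.8% of all genes after the GC trend was removed.

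**Figure D3:**
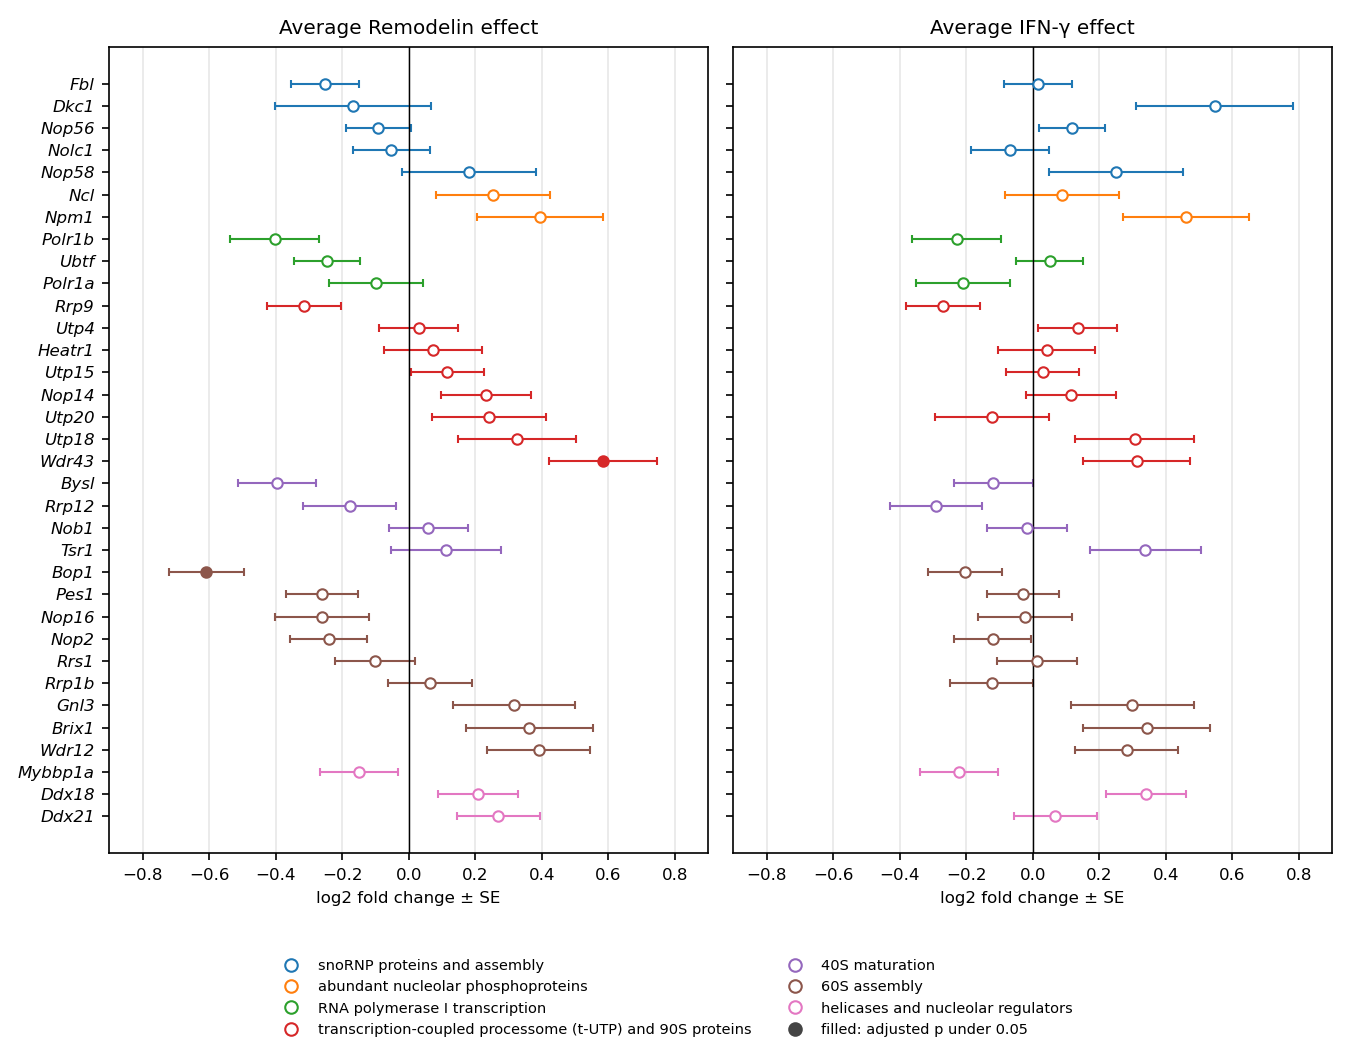
Average Remodelin effect (left) and average IFN-γ effect (right) on each member, as log2 fold change ± SE from 12 libraries, grouped by role, with filled points for an adjusted p under 0.05. On the left Bop1 at -0.61 and Wdr43 at 0.58 are filled; on the right no member is.

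IFN-γ changed no member beyond the threshold. Averaged over cells with and without Remodelin, 0 of 34 members passed beside 0.00742% of genes. At an unadjusted p under 0.05 in edgeR there were 4 members (11.8%) beside 12.9% of genes. DESeq2 called 0 members for this average and 19 genes over all. The 6 libraries with and the 6 without IFN-γ overlapped for every member, while 0.542% of genes lay wholly above and 0.134% wholly below. The 4 members with an unadjusted p under 0.05 were Dkc1 at 0.55 ± 0.24, Npm1 at 0.46 ± 0.19, Ddx18 at 0.34 ± 0.12 and Rrp9 at -0.27 ± 0.11 (log2), with adjusted p of 0.322 to 0.359 in edgeR. Without Remodelin with IFN-γ library 1 they were at 0.33, 0.20, 0.25 and -0.27 in the same order. In the absence of Remodelin, 0 of 34 passed beside 0.0148% of genes, and 1 (2.94%) had an unadjusted p under 0.05 beside 5.37% of genes. DESeq2 called 0 members and 4 genes over all there. The IFN-γ and control libraries did not overlap for 6 members above, beside 9.18% of genes, and 2 below, beside 8.51%. The member with an unadjusted p under 0.05 was Dkc1, with 7.92, 5.88 and 8.01 CPM in IFN-γ libraries against 4.40, 4.02 and 3.15 CPM in control libraries. These groups did not overlap, and the difference was 0.91 ± 0.33 (log2, adjusted p of 0.889 in edgeR). With Remodelin, Dkc1 had 7.68, 3.44 and 4.02 CPM with IFN-γ and 2.56, 3.92 and 6.76 CPM without, and the groups overlapped at a difference of 0.18 ± 0.33 (log2). Its interaction of -0.73 ± 0.47 (log2) had an adjusted p of 1.00 in edgeR. In the presence of Remodelin no member passed and no gene did in edgeR, and DESeq2 called 0 members and 1 gene over all. In edgeR 4 members (11.8%) had an unadjusted p under 0.05 beside 7.74% of genes. The 4 were Ddx18, Utp18, Tsr1 and Rrp9, at an adjusted p of 0.636 each in edgeR, and of 0.998 each without Remodelin with IFN-γ library 1. The groups did not overlap for 2 members above, Utp4 and Tsr1, beside 5.99% of genes, and for 1 below, Rrp9, beside 3.49%. For Ddx18, at 0.46 ± 0.17 (log2), the combined-treatment and Remodelin libraries overlapped. No member passed the interaction test in edgeR or DESeq2, beside 0.00742% of genes in edgeR and 1 gene over all in DESeq2. In edgeR 0 members had an unadjusted p under 0.05.

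The sign of the Remodelin difference followed transcript GC content among the members. Across the 34 genes, which are not independent replicates, the average Remodelin difference had a Spearman's rho of -0.80 with the GC content of the longest transcript, and across the 13339 tested genes with a GC value rho was -0.50. A split at 50% GC, made after the values were seen, left 17 members on each side: 15 of the 17 GC-rich members had a difference below 0, and 16 of the 17 others had one above 0. The average IFN-γ difference showed a like relation, with rho of -0.78 among members and -0.58 over all genes. When the GC trend of each library was removed, rho for Remodelin became -0.41 among members and -0.03 over all genes. Bop1 was then at -0.40 ± 0.08 (log2, adjusted p of 0.0122 in edgeR) and was still called, the only one of the 34 beside 6.13% of genes. Wdr43 was at 0.39 ± 0.12 (log2) with an adjusted p of 0.0706, so its call was lost. Rrp9 was at -0.09 ± 0.10 and Wdr12 at 0.16 ± 0.15 (log2). The correction itself shifts members at the ends of the GC range, so these values are no separate result. Polr1b was less altered, at -0.36 ± 0.12 (log2, adjusted p of 0.0826 in edgeR), and Bysl was at -0.27 ± 0.09 (adjusted p of 0.0795 in edgeR). What gave the libraries their GC trends was not tested.

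**Figure D4:**
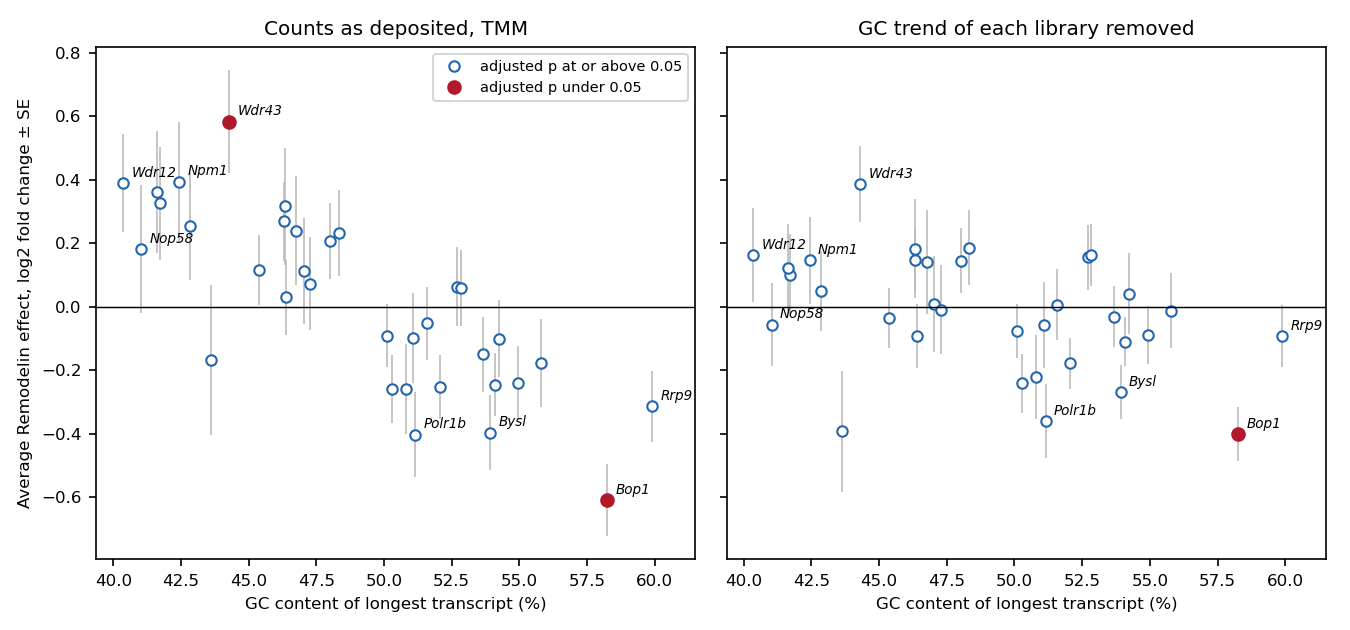
Average Remodelin effect (log2 fold change ± SE, 12 libraries) against the GC content of the longest transcript in percent, 1 point per member, from the counts as deposited (left) and after removal of each library's GC trend (right); filled points have an adjusted p under 0.05. The points slope downwards on the left, at rho of -0.80, and less on the right, at rho of -0.41, where Bop1 alone is filled.

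**Figure D5:**
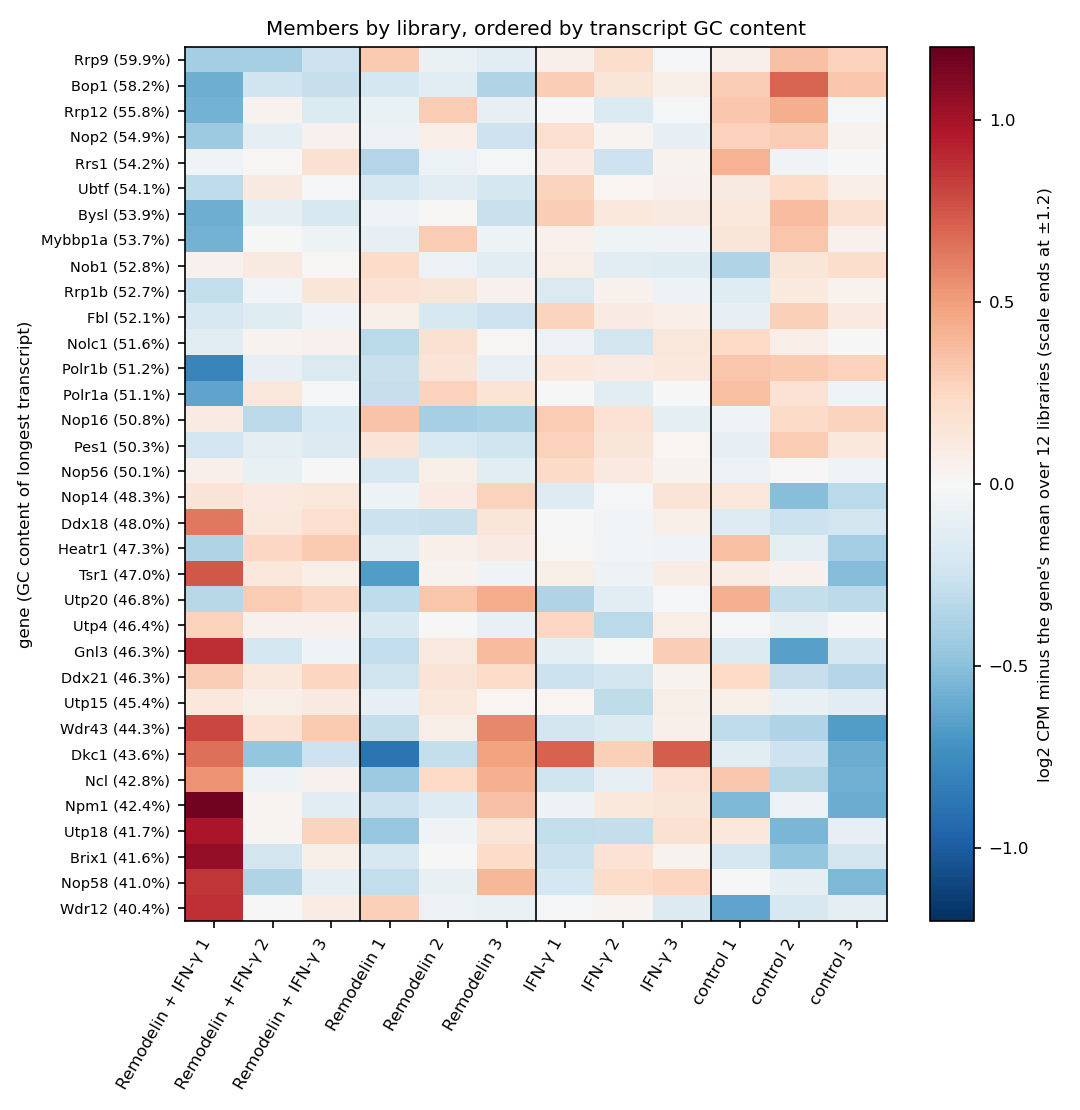
Log2 CPM of each member minus its mean over 12 libraries, with members in rows from the highest to the lowest GC content and libraries in columns by group; red is above and blue below the mean. In Remodelin with IFN-γ library 1 the rows turn from blue at the GC-rich top to red at the bottom, and control libraries 2 and 3 show the opposite turn.

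Of 127 tested genes in 5 further lists of the pathway, 3 passed in the average Remodelin comparison (2.36%, beside 7.04% of all tested genes). Of 13 tested further RNA polymerase I subunits and initiation factors, 0 passed, with a median of 0.14 (log2), and the nearest was the termination factor gene Ttf1 at 0.45 ± 0.14 (adjusted p of 0.0581 in edgeR). Of 12 further snoRNP proteins and their assembly factors 0 passed, with a median of -0.08. Of 42 further processome and small-subunit factors 1 passed, Tbl3, which fell by 0.41 ± 0.11 on the log2 scale (adjusted p of 0.0394 in edgeR). Of 47 further large-subunit factors 1 passed, Eif6, an anti-association factor of the large subunit, which fell by 0.45 ± 0.12 on the log2 scale (adjusted p of 0.0347 in edgeR). Of 13 subunits and cofactors of the nuclear RNA exosome 1 passed, the core subunit Exosc2, which fell by 0.51 ± 0.13 on the log2 scale (adjusted p of 0.0227 in edgeR). In the other 6 comparisons none of these 5 lists had a called gene. Nat10 was at -0.02 ± 0.15 and its partner in transfer RNA acetylation, Thumpd1, at 0.17 ± 0.14 (log2), and neither passed. Myc was at 0.10 ± 0.16 (log2). Of the 10 genes of Myc and its partners 2 were lower, beside 4.8% of all tested genes, both antagonists of Myc. Mxd3 fell by 1.00 ± 0.19 and Mxd4 by 0.59 ± 0.13 on the log2 scale (adjusted p of 0.00636 and 0.0109 in edgeR). The antagonists Mxd1, Mxi1 and Mnt, also among the 10, did not pass. Of 14 proliferation genes 6 fell (42.9%, beside 4.8% of all tested genes) and 0 rose, with a median of -0.35, the lowest being the replication helicase gene Mcm5 at -1.03 ± 0.13 (adjusted p of 1.76e-04 in edgeR). Among the 34 members 1 fell and 1 rose. Summed proliferation genes stood at 470 to 692 CPM in Remodelin with IFN-γ and 415 to 486 in Remodelin, against 553 to 566 in IFN-γ and 473 to 534 in control libraries, and their part in the Bop1 difference was not tested.

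In the authors' deposited table of comparisons, no member had an adjusted p under 0.05 for Remodelin against control, beside 0.628% of the genes with a value there, or for the combined treatment against Remodelin. For the combined treatment against IFN-γ, the authors' deposited table had 1 of 34 members (2.94%) beside 2.89% of genes, Bop1, lower at -0.47 (log2, adjusted p of 0.0338). For the combined treatment against control, the authors' deposited table had Wdr43 (0.76) and Npm1 (0.69) higher and Bop1 (-0.73) and Rrp9 (-0.54) lower (log2). Their adjusted p in that table was 0.00559 to 0.0491, and they were 4 of 34 members (11.8%) beside 3.48% of genes. The edgeR fit did not test that comparison. It sets the library with a GC rho of -0.69 against control libraries with 0.53 and 0.55. Transcript GC content was 44.3% for Wdr43, 42.4% for Npm1, 58.2% for Bop1 and 59.9% for Rrp9. Npm1 had 74.3, 33.9 and 30.5 FPKM in the combined-treatment libraries. The part of GC content and of that library in these 4 calls was not tested. For IFN-γ against control, the authors' deposited table had 1 of 34 members (2.94%) beside 0.593% of genes, Dkc1, higher at 0.60 (log2, adjusted p of 0.0420), a gene that did not pass in the edgeR fit of all 12 libraries.

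Promoters were examined for the E-box that Myc and related factors bind. RefSeq's windows of 250 bases before to 50 after the start (GRCm38.p6) held 29 of the 34 members. The letters CACGTG, the same on both strands, were in 8 of 29 members (27.6%), beside 11.9% of the 9920 tested genes with a window. When only the 250 bases before the start were read, they were in 2 of 29 members (6.90%), beside 10.1% of those genes, so most matches in the members lay after the start. The 30 bases around the match are shown for Wdr43, the member that rose, for Utp18 and for Mybbp1a, with the E-box in capitals.
Wdr43: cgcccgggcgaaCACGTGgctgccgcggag
Utp18: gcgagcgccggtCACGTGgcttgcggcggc
Mybbp1a: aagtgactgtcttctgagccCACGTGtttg

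These windows lie at chr17:71616220-71616249 on the plus strand, chr11:93885769-93885798 on the minus strand and chr11:72441347-72441376 on the plus strand. On either strand, the letters CCAAT were in 34.5% of member windows beside 43.0% of tested genes, GGGCGG in 75.9% beside 69.2%, and CGGAAG in 44.8% beside 35.3%. A match is a description of the letters and not of binding.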

How the data were processed

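The authors aligned the reads with HISAT2 2.0.5 and counted them per gene with featureCounts 1.5.0-p3, after base calling with CASAVA 1.8, per the submitters' processing notes. Neither the genome build nor the use of strand is stated there. The deposited table holds raw counts and FPKM per library, group means that were not used, and, in the authors' own comparisons, log2 fold changes with p-values. The deposited FPKM equal the count per gene length with 1 constant per library.

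The counts of all 12 libraries entered 1 fit in edgeR 4.0.16 (R 4.3.3): TMM scaling, the low-count filter by group, a mean per group, and the quasi-likelihood test, with Benjamini-Hochberg adjustment over all 13474 tested genes and a threshold of 0.05. The common biological coefficient of variation was 18.6%. The average Remodelin effect is the mean of the differences with and without IFN-γ; the average IFN-γ effect is built likewise. The interaction is the Remodelin difference with IFN-γ minus that without. SE is the size of the log2 fold change over the root of F. Log2 CPM used a prior count of 2. Transcript GC content came from the longest GENCODE M21 transcript, and trends were removed with splines of 5 degrees of freedom on ranks.

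Alternatives were DESeq2 1.42.0, limma 3.58.1 with voom, other scaling and filters, GC and length trends removed, only the groups compared, a replicate block, and each library left out. Members described in most detail were those called in a comparison, the 8, 4 and 2 lowest in p for the average Remodelin effect, the average IFN-γ effect and the interaction, and Polr1a, Polr1b, Fbl, Ncl, Npm1, Nop56, Ubtf, Dkc1, Ddx21 and Mybbp1a, with Pes1 added after its values were seen. The members and the lists were chosen with earlier results of these data known.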

Additional observations from a re-analysis of the deposited data

How the results depend on the processing

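The average Remodelin difference of Bop1 kept its sign and its call in 21 of 21 alternatives, and that of Wdr43 kept its sign in 21 and its call in 9. The 2 members called in that comparison became 4 with DESeq2 and 4 with the GC and length trends removed (Bop1, Bysl and Polr1b lower, Wdr43 higher in each), and 1, Bop1, with the GC trend removed. Leaving out single libraries gave 1 to 6 called members, beside 298 to 1960 called genes over all. Without Remodelin library 1 there were 6 (Pes1, Nop16, Bop1, Rrp9 and Bysl lower, Wdr43 higher), among 1960 genes over all. There were 4 without control library 1, where Ddx21 was higher. The count over all genes moved as well, from 949 to 1344 with DESeq2 and 1579 with both trends removed. It was 826 with the GC trend removed and 1960 without Remodelin library 1. For Remodelin against control, 0 called members became 1, Bop1, with a filter of 50 reads in 3 libraries, with DESeq2 and with both trends removed, and leaving out single libraries gave 0 to 1 (1 without Remodelin with IFN-γ library 1). For the average IFN-γ effect, 0 became 1 without a count filter, namely Npm1 (adjusted p of 0.0375 in edgeR). The share of member promoters with CACGTG moved to 6.90% when only bases before the start were read. No named value reversed where it had been called, and the causes of the changes were not tested.

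Replicate numbers were taken from the labels. Between same-numbered libraries, the deviations of genes from their group means had r from -0.55 to 0.26 over 18 pairs, 5 of them over 0.1. Between differently numbered libraries, r was -0.32 to 0.41 over 36 pairs, 12 of them over 0.1. Those deviations also carry the GC and length trends of each library, so they cannot tell whether the numbers pair the samples. With the replicate block, 1 member, Bop1, was called for the average Remodelin effect, also with the GC trend removed. Over all genes the block called 578 against 949 without it, and with the GC trend removed 528 against 826. For Remodelin against control the block called 58 of all genes against 114, and for the combined treatment against IFN-γ 24 against 49.

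For Remodelin against control, 114 genes over all became 283 without a count filter, 242 with DESeq2, 428 with both trends removed, 187 with the GC trend removed, 72 with the block as well and 22 in a fit of only those groups. For the combined treatment against IFN-γ, 49 became 271 without a count filter, 286 with DESeq2, 389 with both trends removed, 74 with the GC trend removed and 83 in a fit of only those groups. For the average Remodelin effect, 949 became 1579 with both trends removed, and leaving out single libraries gave 298 (without control library 2) to 1960 (without Remodelin library 1). For IFN-γ against control, 2 became 52 without a count filter, 19 in a fit of only those groups and 4 with DESeq2, and for the average IFN-γ effect 1 became 325 without a count filter and 19 with DESeq2. The split of higher and lower genes for the average Remodelin effect was 302 and 647, 327 and 496 with DESeq2 size factors, and 725 and 854 with both trends removed. Depth limits the members at few reads, such as Dkc1 with 40 counts in Remodelin library 1 and 58 in control library 3.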
